A study of Homo sapiens with 8 samples.

Results

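Transcripts of collagens, laminins and 6 large matrix glycoproteins were followed in the H9 line of human embryonic stem cells, which is long established and widely shared. The genes were chosen by symbol, namely COL with a number, A and a number, LAMA, LAMB or LAMC with a number, and FN1, TNC, HSPG2, AGRN, NID1 and NID2. This gave 62 genes among 45961 rows of 1 table, and the rule uses symbols and no measured value. Of the 62, 39 averaged 1 FPKM or more and were tested, and 26 of these averaged 5 FPKM or more. FPKM counts fragments per kilobase of transcript after scaling by the mapped fragments of a library.

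The series asks whether competition between cells limits chimeras of distant species, and consists of 8 polyA RNA libraries, 2 in each of 4 groups. Replicates 2 and 3 of D1_Co, 1 and 3 of D2_Co, and 1 and 2 of D3_Co are read as co-culture on days 1, 2 and 3, and replicates 2 and 3 of D3_Control as separate culture on day 3. Per the labels' protocols, cells of passages 41 to 50 were grown either on Matrigel in mTeSR1 medium or on inactivated mouse fibroblasts in NBFR medium with FGF2 and IWR1, an inhibitor of WNT signalling. The sources used here give neither the condition of each library, nor the partner cells, nor the way in which human cells were separated from them. Separate culture was measured on day 3 only, so for D1_Co and D2_Co against D3_Control day and culture cannot be told apart. Nothing in the labels says that the 2 libraries of a group are separate cultures, so the p-values refer to the spread between these libraries only, which may be technical.

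The extracellular matrix is the protein mesh that cells secrete and hold on to. In epithelia and in pluripotent cells the nearest layer is the basement membrane, in which laminin trimers, each of an alpha, a beta and a gamma chain, and sheets of type IV collagen are joined by nidogens, perlecan (HSPG2) and agrin. Fibrillar collagens, fibronectin and tenascin C belong mainly to the looser matrix of connective tissue, wounds and moving cells, and cultured pluripotent cells bind laminin and fibronectin through integrins.

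In the deposited table many values stood on the row of another gene and were first returned to their own rows. Among the 39 tested genes, 18 had kept their row throughout, and 21 had 1 value or more on another row. COL12A1 and COL17A1 had values whose place was not settled. All libraries were drawn to D1_Co replicate 2 in this step. Differences from D1_Co on moved rows can thus be understated, and those between other groups understated or overstated. The cells carried the stem cell label in all 4 groups, with POU5F1 between 722 and 811 FPKM, SOX2 between 116 and 138 FPKM and NANOG between 32.1 and 46.6 FPKM. Summed over 12 pluripotency markers, the level was lower in co-culture. It was 2364 to 2376 FPKM in D1_Co, 2419 to 2504 FPKM in D2_Co and 2504 to 2554 FPKM in D3_Co. The D3_Control libraries lay at 2938 and 3024 FPKM. Summed FPKM per library lay between 421825 and 440675, and absolute depth is unknown. In bulk RNA, fewer cells of a type and less RNA per cell cannot be told apart.

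Matrix genes were more often higher than lower in co-culture on day 3. In D3_Co, 19 of the 39 tested genes were higher than in D3_Control and 3 were lower, while 13.5% of all 12449 tested genes were called higher and 10.8% lower, or 24.4% in either direction (limma on log2(FPKM + 1), adjusted p under 0.05). Their median difference in log2(FPKM + 1) was 0.29, against 0.00 over all tested genes. The largest were TNC at 1.61, COL7A1 at 1.15 and COL1A2 at 0.94. Fibrillar collagens gave 5 of 7 higher and none lower. In fits that each left out 1 library, 11 of the 19 higher genes and 1 of the 3 lower genes kept their call in all 8 fits. Among those 11 were COL1A1, COL1A2, COL4A2, COL5A1, COL5A2, COL6A2, COL7A1, COL22A1, NID1 and TNC, and the lower one was COL26A1. Leaving out a library gave between 13 and 20 called genes in place of 22, with 13 both without D3_Control replicate 2 and without D3_Control replicate 3, and the remaining library of that group was then assumed to vary like the other groups.

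**Figure D1:**
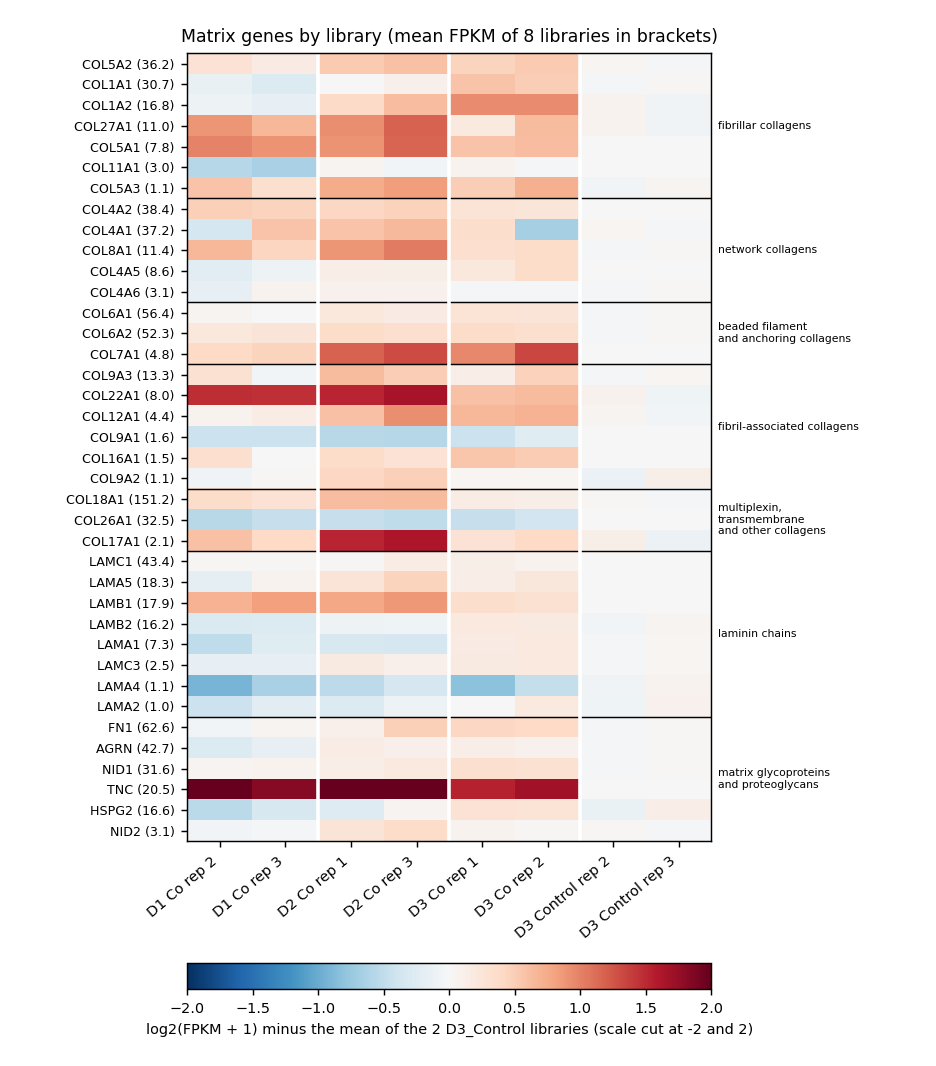
Colour shows, for 38 of the 39 tested genes (rows, by class) and each library (columns), log2(FPKM + 1) minus the mean of the 2 D3_Control libraries, with red higher and blue lower. TNC and COL22A1 are red in all 6 co-culture libraries, COL26A1 and COL9A1 are blue in all 6, and COL4A1 differs in colour between the libraries of D1_Co and of D3_Co.

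Days 1 and 2 gave different mixes of higher and lower genes. In D1_Co, 14 of 39 were higher and 7 lower than in D3_Control, with 10.5% of all tested genes called higher and 12.2% lower, or 22.8% in either direction. In D2_Co, 22 were higher and 3 lower, with 12.4% and 12.6% of all tested genes, or 25% in either direction. The 3 comparisons share the D3_Control libraries, and their median differences were 0.03 for D1_Co, 0.35 for D2_Co and 0.29 for D3_Co, against -0.03, -0.04 and 0.00 over all tested genes. Leaving out a library gave between 11 and 19 called genes in place of 21 for D1_Co, the lowest without D1_Co replicate 2 and without D3_Control replicate 3. Summed over all 62 genes, the level was 788 and 803 FPKM in D1_Co, 934 and 999 FPKM in D2_Co, 875 and 860 FPKM in D3_Co, and 714 and 721 FPKM in D3_Control. All 6 co-culture libraries lay above both D3_Control libraries, with D2_Co the highest. Group means peaked in D2_Co for 21 of the 39 genes, in D3_Co for 14, in D3_Control for 3 and in D1_Co for 1. The same count was not made over all tested genes, so this gives no peak particular to matrix genes.

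Between co-culture days, 11 of 39 genes were higher and none lower in D2_Co than in D1_Co, against 4.23% of all tested genes called higher and 2.87% lower, or 7.1% in either direction. None of the 11 kept its call in all 8 fits that left out 1 library, and 0 were called without D2_Co replicate 3 and 1 each without D1_Co replicate 2 and without D1_Co replicate 3. In D3_Co, 4 were higher and 10 lower than in D2_Co, against 8.7% and 7.22% of all tested genes, or 15.9% in either direction. Of these, COL1A1 was higher and COL17A1, COL18A1, COL22A1, LAMB1 and TNC were lower in all 8 fits. These fits reuse the restored rows and do not test the placement of values, which for COL17A1 was not settled. Leaving out a library gave between 6 and 12 called genes in place of 14, with 6 without D3_Co replicate 1, 7 without D2_Co replicate 3 and 8 each without D2_Co replicate 1 and without D3_Co replicate 2. In D3_Co, 15 were higher and 5 lower than in D1_Co, against 16.1% and 10.5% of all tested genes, or 26.6% in either direction. AGRN, COL1A1, COL1A2, COL4A5, COL7A1, COL11A1, HSPG2, LAMA1 and LAMB2 were higher, and COL22A1 and LAMB1 lower, in all 8 fits, while 12 genes were called without D3_Co replicate 1 and 13 each without D1_Co replicate 3 and without D3_Co replicate 2.

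TNC, tenascin C, a glycoprotein of embryonic and wound matrix that loosens cell attachment to fibronectin, showed the widest range of the well-expressed genes. Its level was 22.0 and 19.3 FPKM in D1_Co, 32.5 and 47.5 FPKM in D2_Co, 15.7 and 17.3 FPKM in D3_Co, and 4.68 and 4.76 FPKM in D3_Control. All co-culture libraries were far above both D3_Control libraries, and D2_Co stood above the other days with its 2 libraries apart from each other. The difference from D3_Control was 1.92 in D1_Co, 2.82 in D2_Co and 1.61 in D3_Co on the log2(FPKM + 1) scale, with ratios of mean FPKM of 4.37, 8.48 and 3.498 (limma, adjusted p = 0.000382, 9.28e-05 and 0.00112). Against the day before, TNC was lower in D3_Co than in D2_Co by a log2 difference of -1.20 (limma, adjusted p = 0.00714). D2_Co was higher than D1_Co by 0.90 (limma, adjusted p = 0.0266), a call lost in 5 of the 8 fits that left out 1 library, with adjusted p = 0.105 without D1_Co replicate 3, 0.0794 without D1_Co replicate 2, 0.069 without D2_Co replicate 3, 0.0504 without D3_Control replicate 2 and 0.0503 without D3_Control replicate 3. The TNC row kept its place in all libraries.

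The promoter window of TNC is shown because TNC had the largest difference among matrix genes between D3_Co and D3_Control. It covers 250 bases before and 50 after the start site, from RefSeq on GRCh38.p14, minus strand, at chr9:115118108-115118407. Capitals mark GGGCGG, the letters of a GC box.
TNC: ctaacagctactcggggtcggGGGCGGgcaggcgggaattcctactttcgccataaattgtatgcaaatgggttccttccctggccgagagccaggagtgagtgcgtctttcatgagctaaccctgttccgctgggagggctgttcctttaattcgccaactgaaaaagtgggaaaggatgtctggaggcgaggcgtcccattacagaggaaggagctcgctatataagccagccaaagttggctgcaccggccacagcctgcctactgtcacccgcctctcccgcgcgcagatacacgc
The match began 229 bases before the start site. On both strands GGGCGG occurs in 44.6% of 27305 promoter windows and in 21 of the 28 windows found for tested matrix genes. CCAAT (in 35.7% of all windows), TATAAA (11.95%) and TGANTCA, the letters of an AP-1 site (7.76%), were not found in the TNC window. GGGCGG was the only one of the 4 found there, so no matches overlapped, and a match describes letters only.

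**Figure D2:**
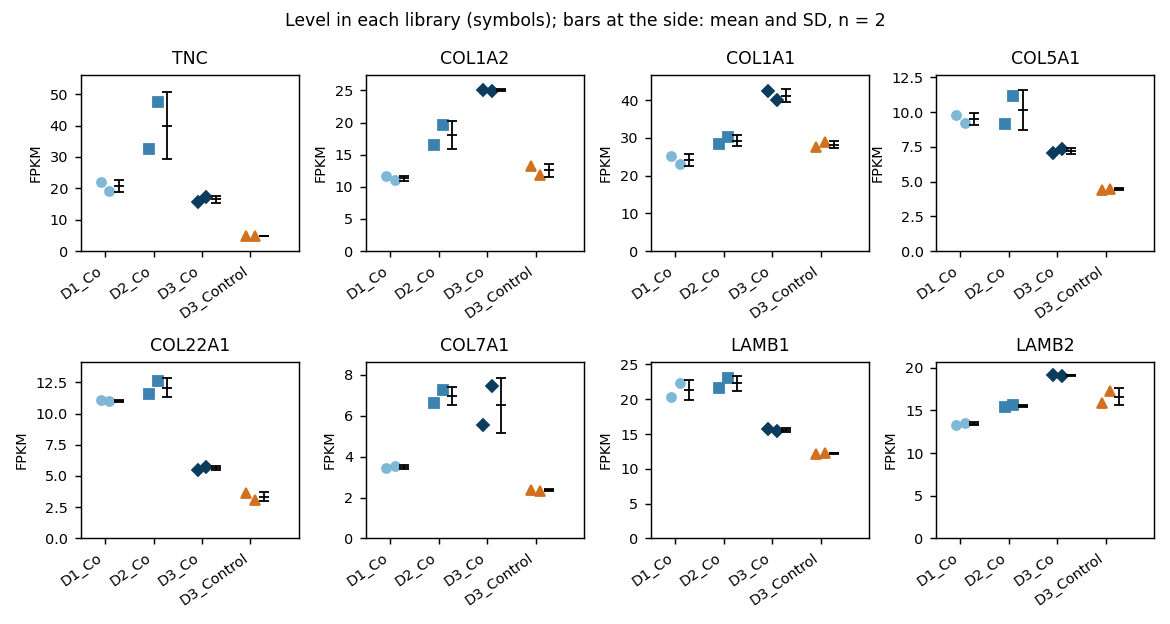
Symbols give FPKM (vertical axis, from 0) in each library of the 4 groups (horizontal axis) for 8 matrix genes, with the mean and SD of 2 libraries drawn beside them. TNC is highest in D2_Co, COL1A2 and COL1A1 are highest in D3_Co, COL22A1 and LAMB1 are higher on days 1 and 2 than in D3_Co, and LAMB2 is highest in D3_Co.

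The type I collagen genes, which encode the main collagen of skin, bone and tendon, were highest on day 3 of co-culture. COL1A1 had 25.3 and 23.1 FPKM in D1_Co, 28.3 and 30.3 FPKM in D2_Co, 42.5 and 39.96 FPKM in D3_Co, and 27.6 and 28.8 FPKM in D3_Control. COL1A2 had 11.6 and 11.0 FPKM in D1_Co, 16.6 and 19.7 FPKM in D2_Co, 25.1 and 24.9 FPKM in D3_Co, and 13.3 and 11.8 FPKM in D3_Control. For both genes D3_Co overlapped no other group. COL1A1 was higher in D3_Co by 0.53 against D3_Control, 0.48 against D2_Co and 0.75 against D1_Co (limma, adjusted p = 0.00236, 0.00787 and 0.00125). COL1A2 was higher by 0.94 against D3_Control and by 1.08 against D1_Co (limma, adjusted p = 0.00101 and 0.0012). On day 1 neither was called against D3_Control, at -0.22 for COL1A1 and -0.13 for COL1A2. COL1A2 was also higher in D3_Co than in D2_Co by 0.45 (limma, adjusted p = 0.0217), which reached adjusted p = 0.08 without D2_Co replicate 1, 0.0864 without D3_Co replicate 1 and 0.0783 without D3_Co replicate 2. It was higher in D2_Co than in D3_Control by 0.49 (limma, adjusted p = 0.00899, and 0.0573 without D3_Control replicate 3). A type I collagen molecule holds a pair of COL1A1 chains for each COL1A2 chain, but a ratio of transcript FPKM does not measure the ratio of chains. The ratio of COL1A1 to COL1A2 in FPKM was 2.17 and 2.097 in D1_Co, 1.71 and 1.54 in D2_Co, 1.69 and 1.60 in D3_Co, and 2.08 and 2.44 in D3_Control, so D2_Co and D3_Co lay below D1_Co and D3_Control with no overlap.

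Type V collagen, which starts and trims type I fibrils, had both main chains higher in all 3 co-culture groups than in D3_Control. COL5A1 had 9.80 and 9.20 FPKM in D1_Co, 9.15 and 11.2 FPKM in D2_Co, 7.07 and 7.38 FPKM in D3_Co, and 4.41 and 4.49 FPKM in D3_Control. COL5A2 had 35.1 and 32.1 FPKM in D1_Co, 41.6 and 43.5 FPKM in D2_Co, 39.1 and 41.5 FPKM in D3_Co, and 29.3 and 27.8 FPKM in D3_Control. Every co-culture library lay above both D3_Control libraries for either gene. The difference from D3_Control was 0.94, 1.03 and 0.59 for COL5A1 in D1_Co, D2_Co and D3_Co (limma, adjusted p = 0.000742, 0.000487 and 0.00534). For COL5A2 it was 0.23, 0.56 and 0.48 (limma, adjusted p = 0.0405, 0.00119 and 0.0026), and the D1_Co call was lost in 7 of the 8 fits that left out 1 library. Those 7 gave an adjusted p between 0.0513 (without D3_Co replicate 1) and 0.186 (without D3_Control replicate 3), with 0.183 without D1_Co replicate 2, 0.0809 without D3_Control replicate 2, 0.0573 without D2_Co replicate 1, 0.0574 without D2_Co replicate 3 and 0.0514 without D3_Co replicate 2. The ratio of COL5A2 to COL5A1 was 3.58 and 3.49 in D1_Co, 4.55 and 3.89 in D2_Co, 5.54 and 5.62 in D3_Co, and 6.64 and 6.19 in D3_Control, and the 4 groups did not overlap. Other COL5A1 values were allowed in the alignment, 5.41 FPKM for D1_Co replicate 3 and 7.10 FPKM for D2_Co replicate 1. Their extra cost was 1.75 and 1.42. Both lie above D3_Control, but with them the ratios of the groups would overlap, so that separation rests on the order chosen.

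The other fibrillar collagens were lower in level. COL27A1, a fibrillar collagen known from cartilage, had 13.3 and 11.3 FPKM in D1_Co, 13.9 and 16.7 FPKM in D2_Co, 7.97 and 11.1 FPKM in D3_Co, and 7.16 and 6.47 FPKM in D3_Control. Each co-culture library was above both D3_Control libraries, and the D3_Co libraries were far apart. It was higher in D2_Co than in D3_Control by 1.05 (limma, adjusted p = 0.00388) and in D1_Co by 0.77 (limma, adjusted p = 0.0135, with 0.0793 without D1_Co replicate 2 and 0.0811 without D3_Control replicate 3). In D3_Co the difference of 0.41 was not called (limma, adjusted p = 0.0958), and without D3_Co replicate 1 it was 0.63 and called (adjusted p = 0.0365). COL11A1, which sits inside thin fibrils of cartilage, had 1.94 and 1.77 FPKM in D1_Co, 3.51 and 3.20 FPKM in D2_Co, 3.55 and 3.26 FPKM in D3_Co, and 3.38 and 3.32 FPKM in D3_Control. Only D1_Co stood apart, lower than D3_Control by a log2 difference of -0.61 (limma, adjusted p = 0.00291), and D3_Co was higher than D1_Co by 0.62 (limma, adjusted p = 0.00341). COL5A3 averaged 1.24 ± 0.226 FPKM in D3_Co and 0.472 ± 0.0689 FPKM in D3_Control (SD, n = 2 each), a difference of 0.60 (limma, adjusted p = 0.0158, and 0.0831, 0.0788 and 0.0534 without D3_Co replicate 2, D3_Control replicate 2 and D3_Control replicate 3).

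Type IV collagen forms the sheet of basement membranes, and its genes lie as head-to-head pairs, COL4A1 beside COL4A2 on chromosome 13 and COL4A5 beside COL4A6 on chromosome X. The windows around their start sites are shown because each pair shares its promoter region. From RefSeq on GRCh38.p14 the start sites of COL4A1 (chr13:110307108-110307407, minus strand) and COL4A2 (chr13:110307034-110307333, plus strand) lay 127 bases apart. Those of COL4A5 (chrX:108439588-108439887, plus strand) and COL4A6 (chrX:108439409-108439708, minus strand) lay 380 bases apart. Capitals mark the bases that lie in both windows of a pair, 226 for COL4A1 and COL4A2 and 121 for COL4A5 and COL4A6, read from opposite strands.
COL4A1: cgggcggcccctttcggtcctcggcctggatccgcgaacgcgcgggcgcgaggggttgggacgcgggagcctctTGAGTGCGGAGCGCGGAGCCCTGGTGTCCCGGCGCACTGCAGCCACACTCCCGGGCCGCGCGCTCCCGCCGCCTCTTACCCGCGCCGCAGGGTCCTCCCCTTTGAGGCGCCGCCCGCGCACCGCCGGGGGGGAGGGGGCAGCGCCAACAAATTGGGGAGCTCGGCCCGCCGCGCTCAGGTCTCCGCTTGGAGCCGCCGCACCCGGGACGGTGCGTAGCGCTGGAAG
COL4A2: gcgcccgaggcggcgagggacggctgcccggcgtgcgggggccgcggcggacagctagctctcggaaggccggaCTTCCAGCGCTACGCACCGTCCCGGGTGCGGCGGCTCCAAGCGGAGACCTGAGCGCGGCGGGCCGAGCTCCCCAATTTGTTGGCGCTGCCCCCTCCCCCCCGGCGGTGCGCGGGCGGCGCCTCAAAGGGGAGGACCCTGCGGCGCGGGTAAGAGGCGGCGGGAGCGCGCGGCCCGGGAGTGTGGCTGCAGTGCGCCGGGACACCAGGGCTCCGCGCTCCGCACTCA
COL4A5: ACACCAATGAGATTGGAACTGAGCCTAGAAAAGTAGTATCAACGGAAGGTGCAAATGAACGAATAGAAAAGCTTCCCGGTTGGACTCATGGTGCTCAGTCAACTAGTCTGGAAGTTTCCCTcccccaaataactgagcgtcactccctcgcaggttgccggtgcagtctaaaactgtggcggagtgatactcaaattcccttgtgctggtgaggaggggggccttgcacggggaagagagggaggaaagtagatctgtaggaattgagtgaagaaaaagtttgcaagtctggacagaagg
COL4A6: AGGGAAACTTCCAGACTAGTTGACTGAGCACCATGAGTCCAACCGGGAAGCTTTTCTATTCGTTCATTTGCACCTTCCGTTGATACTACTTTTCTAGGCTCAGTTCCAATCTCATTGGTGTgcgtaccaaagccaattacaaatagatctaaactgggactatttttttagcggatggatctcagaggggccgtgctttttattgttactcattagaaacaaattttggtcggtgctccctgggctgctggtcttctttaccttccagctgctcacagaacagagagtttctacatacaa
CCAAT, on either strand, was found in all 4 windows and occurs in 35.7% of 27305 windows. GGGCGG was found in the windows of COL4A1 and COL4A2 and not in those of COL4A5 and COL4A6, and occurs in 44.6%.

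COL4A2 was among the steadiest of the called genes, with 43.5 and 42.7 FPKM in D1_Co, 41.6 and 42.8 FPKM in D2_Co, 37.6 and 37.0 FPKM in D3_Co, and 30.9 and 31.2 FPKM in D3_Control. The co-culture groups all lay above D3_Control, and D3_Co lay below both earlier days. Its difference from D3_Control was 0.46 in D1_Co, 0.43 in D2_Co and 0.26 in D3_Co (limma, adjusted p = 0.000653, 0.000822 and 0.00706). COL4A1, its partner, had 25.0 and 48.0 FPKM in D1_Co, 48.0 and 51.1 FPKM in D2_Co, 41.3 and 19.9 FPKM in D3_Co, and 32.9 and 31.2 FPKM in D3_Control. D1_Co replicate 2 and D3_Co replicate 2 stood far below the other library of their group, while COL4A2 in the same libraries did not. The ratio of COL4A2 to COL4A1 was 1.74 in D1_Co replicate 2 and 1.86 in D3_Co replicate 2, and between 0.839 and 0.998 in the other 6 libraries. COL4A1 was not called in any comparison. Its difference between D3_Co and D3_Control was -0.15 (limma, adjusted p = 0.79), 0.35 without D3_Co replicate 2 and -0.66 without D3_Co replicate 1. Both low values stood on the row as deposited, but D1_Co replicate 2 was the reference of the alignment, so its values could not move. The next allowed value for D3_Co replicate 2 was 45.8 FPKM, at an extra cost of 5.67 in summed absolute log2 difference over all rows. For D3_Control replicates 2 and 3 the next allowed values were 47.1 and 48.2 FPKM, at the lower extra cost of 3.81 and 3.90.

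COL4A5 had 6.85 and 7.49 FPKM in D1_Co, 8.99 and 8.92 FPKM in D2_Co, 9.50 and 10.8 FPKM in D3_Co, and 8.12 and 8.09 FPKM in D3_Control. D3_Co was highest and D1_Co lowest, with no overlap between groups. It was higher in D3_Co than in D1_Co by 0.44 (limma, adjusted p = 0.0074). Against D3_Control it was higher in D3_Co by 0.29 (limma, adjusted p = 0.0343), a call lost in 5 of 8 fits, with 0.156 without D3_Co replicate 2, 0.115 without D3_Control replicate 2, 0.12 without D3_Control replicate 3, 0.0545 without D2_Co replicate 1 and 0.0544 without D2_Co replicate 3. COL4A6 ranged only over 2.60 to 3.30 FPKM and was not called in any comparison. The ratio of COL4A5 to COL4A6 was 3.17 and 3.61 in D3_Co and between 2.30 and 2.74 in the other 6 libraries. COL8A1, a short network collagen of vessel walls, had 12.9 and 10.8 FPKM in D1_Co, 15.1 and 17.0 FPKM in D2_Co, 10.01 and 10.3 FPKM in D3_Co, and 7.58 and 7.91 FPKM in D3_Control. Co-culture lay above separate culture in every library, with D2_Co the highest. It was higher than D3_Control by 0.55 in D1_Co and 0.96 in D2_Co (limma, adjusted p = 0.00685 and 0.000676). In D3_Co the difference was 0.35 (limma, adjusted p = 0.0355), and it reached 0.0997, 0.13, 0.14 and 0.101 without D3_Co replicate 1, D3_Co replicate 2, D3_Control replicate 2 and D3_Control replicate 3. For D3_Control replicate 2 another COL8A1 value, 6.16 FPKM, was nearly as close in the alignment.

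**Figure D3:**
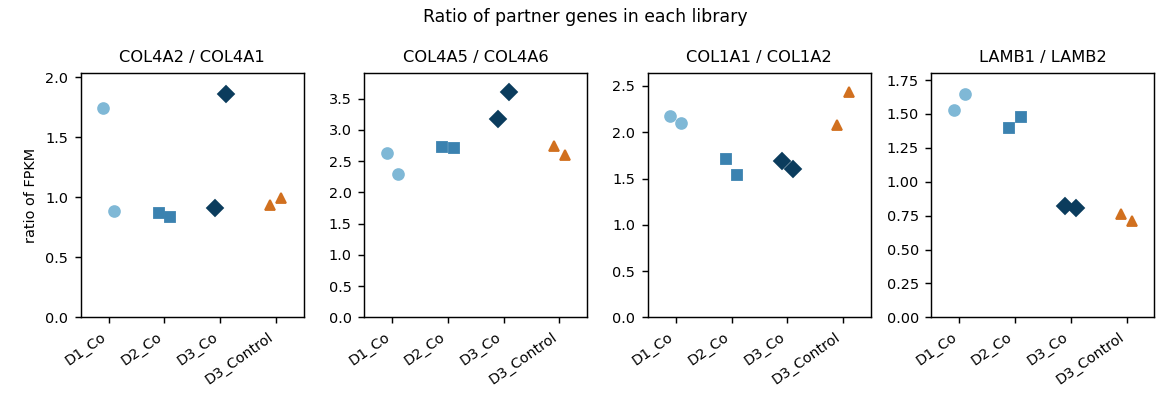
Each panel plots the ratio of FPKM of a gene pair (vertical axis, from 0) in each library of the 4 groups (horizontal axis). COL4A2 to COL4A1 is 1.74 and 1.86 in single libraries of D1_Co and D3_Co and at most 0.998 elsewhere, and LAMB1 to LAMB2 lies above 1 on days 1 and 2 and below 1 in D3_Co and D3_Control.

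Type VI collagen, a beaded filament at the border of basement membrane and connective tissue, was expressed at high level from COL6A1 and COL6A2, while COL6A3, the third chain of its trimer, did not exceed 0.486 FPKM. COL6A1 had 53.5 and 51.2 FPKM in D1_Co, 60.2 and 57.7 FPKM in D2_Co, 62.8 and 62.2 FPKM in D3_Co, and 50.6 and 52.8 FPKM in D3_Control. COL6A2 had 51.2 and 53.2 FPKM in D1_Co, 57.2 and 56.0 FPKM in D2_Co, 57.2 and 55.1 FPKM in D3_Co, and 43.3 and 45.0 FPKM in D3_Control. D2_Co and D3_Co lay above D3_Control for both genes, and D1_Co overlapped D3_Control for COL6A1. In D3_Co, COL6A2 was higher by 0.34 and COL6A1 by 0.27 (limma, adjusted p = 0.00359 and 0.00892, the second 0.0574 without D3_Control replicate 2). COL7A1, the collagen of anchoring fibrils under epithelia, had 3.42 and 3.56 FPKM in D1_Co, 6.64 and 7.27 FPKM in D2_Co, 5.56 and 7.46 FPKM in D3_Co, and 2.38 and 2.33 FPKM in D3_Control. Its level in D2_Co and D3_Co was above that in D1_Co, which was above D3_Control. The difference from D3_Control was 1.24 in D2_Co and 1.15 in D3_Co (limma, adjusted p = 0.000666 and 0.00135), and D3_Co was higher than D1_Co by 0.73 (limma, adjusted p = 0.00653).

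Among fibril-associated collagens, which coat fibrils without forming them, COL22A1, known from the junction of muscle and tendon, gave the clearest day pattern. It had 11.1 and 11.0 FPKM in D1_Co, 11.5 and 12.6 FPKM in D2_Co, 5.497 and 5.72 FPKM in D3_Co, and 3.597 and 3.11 FPKM in D3_Control. Days 1 and 2 lay well above D3_Co, which lay above D3_Control. The difference from D3_Control was 1.47, 1.59 and 0.60 in D1_Co, D2_Co and D3_Co (limma, adjusted p = 7.14e-05, 5.32e-05 and 0.00273), and D3_Co was lower than D2_Co by a log2 difference of -0.98 (limma, adjusted p = 0.0023). For the D3_Co libraries other COL22A1 values, 3.11 and 3.08 FPKM, were allowed in the alignment at an extra cost of 1.43 and 1.55, and these do not lie above D3_Control. COL12A1, which links fibrils to their surroundings, had 3.19 and 3.40 FPKM in D1_Co, 4.97 and 6.64 FPKM in D2_Co, 5.31 and 5.44 FPKM in D3_Co, and 3.14 and 2.85 FPKM in D3_Control. D2_Co and D3_Co lay above D1_Co and D3_Control. Its difference from D3_Control was 0.76 in D2_Co (limma, adjusted p = 0.00514) and 0.68 in D3_Co (limma, adjusted p = 0.00821, and 0.0503 without D3_Control replicate 3). Both D2_Co values of COL12A1 had a close alternative in the alignment, at 2.26 and 1.90 FPKM, under which D2_Co would lie below D3_Control. The D3_Co values had alternatives at 2.22 and 2.09 FPKM, at an extra cost of 1.01 and 1.18 against 0.966 and 0.231 in D2_Co, and these too lie below D3_Control, so both calls rest on the order chosen.

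Type IX collagen, the partner of type II fibrils in cartilage, was uneven. COL9A3 had 13.6 and 10.4 FPKM in D1_Co, 17.3 and 15.7 FPKM in D2_Co, 11.98 and 15.4 FPKM in D3_Co, and 10.5 and 11.2 FPKM in D3_Control. D2_Co alone stood above all other libraries, higher than D3_Control by 0.56 (limma, adjusted p = 0.0302). That call was lost in 4 of 8 fits, with 0.126 without D2_Co replicate 1, 0.0811 without D2_Co replicate 3, 0.125 without D3_Control replicate 2 and 0.0928 without D3_Control replicate 3. COL9A1 had 1.37 and 1.36 FPKM in D1_Co, 1.17 and 1.14 FPKM in D2_Co, 1.36 and 1.69 FPKM in D3_Co, and 2.21 and 2.16 FPKM in D3_Control, all co-culture libraries being lower. It was lower by a log2 difference of -0.43, -0.56 and -0.34 in D1_Co, D2_Co and D3_Co (limma, adjusted p = 0.0205, 0.00728 and 0.0442). The D2_Co call alone held in all 8 fits, and the D3_Co call was lost in each, with adjusted p between 0.0518 and 0.184. The D1_Co call was lost in 4, with 0.083 without D1_Co replicate 2, 0.0752 without D1_Co replicate 3, 0.0831 without D3_Control replicate 2 and 0.0847 without D3_Control replicate 3. COL16A1 averaged 2.04 ± 0.0665 FPKM in D3_Co and 1.11 ± 0.00453 FPKM in D3_Control (SD, n = 2 each), a difference of 0.53 (limma, adjusted p = 0.0232). Leaving out replicate 1 or 2 of D3_Co gave an adjusted p of 0.0922 or 0.0785, and leaving out replicate 2 or 3 of D3_Control gave 0.0911 or 0.0896. COL9A2, at a mean of 1.12 FPKM, was called higher only in D2_Co against D3_Control, by 0.44 (limma, adjusted p = 0.028), and lower in D3_Co than in D2_Co, by -0.40 (limma, adjusted p = 0.0499). Both calls were lost in fits that left out 1 library, the first in 3 of them with 0.0824 without D2_Co replicate 1, 0.122 without D2_Co replicate 3 and 0.13 without D3_Control replicate 2, and the second in all 8 with 0.0515 to 0.181.

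COL18A1, a basement membrane collagen and the source of the fragment endostatin, was the most abundant of the 62 per kilobase. It had 160 and 151 FPKM in D1_Co, 189 and 192 FPKM in D2_Co, 136 and 134 FPKM in D3_Co, and 125 and 121 FPKM in D3_Control. The 4 groups did not overlap, with D2_Co highest and D3_Control lowest. It was higher than D3_Control by 0.34 in D1_Co and 0.63 in D2_Co (limma, adjusted p = 0.00285 and 0.000213), and in D3_Co the difference of 0.13 was not called (limma, adjusted p = 0.0773). Exons of SLC19A1 cover 16.4% of COL18A1 exon bases in GENCODE 29, and the sources used here do not say whether strand was used in counting. COL26A1 ran the other way, with 27.9 and 29.8 FPKM in D1_Co, 29.8 and 28.7 FPKM in D2_Co, 29.7 and 31.5 FPKM in D3_Co, and 41.0 and 41.7 FPKM in D3_Control. Co-culture was lower in every library, by a log2 difference of -0.51, -0.49 and -0.42 in D1_Co, D2_Co and D3_Co (limma, adjusted p = 0.00114, 0.00127 and 0.00279). COL17A1, a transmembrane collagen of hemidesmosomes, had 1.80 and 1.47 FPKM in D1_Co, 4.36 and 4.74 FPKM in D2_Co, 1.28 and 1.46 FPKM in D3_Co, and 1.02 and 0.730 FPKM in D3_Control. D2_Co stood above all other libraries, by 1.57 against D3_Control (limma, adjusted p = 0.000224), but its replicate 3 had a close alternative of 1.71 FPKM in the alignment.

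LAMB1 and LAMB2, alternative beta chains of laminin, changed in opposite directions over the co-culture days. LAMB1 had 20.4 and 22.3 FPKM in D1_Co, 21.6 and 23.0 FPKM in D2_Co, 15.8 and 15.4 FPKM in D3_Co, and 12.2 and 12.3 FPKM in D3_Control. LAMB2 had 13.3 and 13.6 FPKM in D1_Co, 15.4 and 15.6 FPKM in D2_Co, 19.2 and 19.0 FPKM in D3_Co, and 15.9 and 17.3 FPKM in D3_Control. LAMB1 was high on days 1 and 2, whereas LAMB2 was lowest in D1_Co and highest in D3_Co. LAMB1 was higher than D3_Control by 0.76, 0.82 and 0.33 in D1_Co, D2_Co and D3_Co (limma, adjusted p = 0.000396, 0.000259 and 0.0116), the last reaching 0.0571 without D3_Co replicate 1, 0.0582 without D3_Control replicate 2 and 0.0539 without D3_Control replicate 3. In D3_Co against D1_Co, LAMB1 was lower by a log2 difference of -0.43 and LAMB2 higher by 0.48 (limma, adjusted p = 0.00465 and 0.00235). LAMB2 did not pass the test in D3_Co against D3_Control, at 0.19 (limma, adjusted p = 0.0503). It was lower in D1_Co than in D3_Control, by -0.28 (limma, adjusted p = 0.0134, with 0.067 without D1_Co replicate 2 and 0.081 without D3_Control replicate 3). The ratio of LAMB1 to LAMB2 was 1.53 and 1.65 in D1_Co, 1.40 and 1.48 in D2_Co, 0.824 and 0.808 in D3_Co, and 0.766 and 0.708 in D3_Control, so LAMB1 exceeded LAMB2 per kilobase on days 1 and 2 only.

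LAMC1, the common gamma chain of laminin, had 42.5 and 42.7 FPKM in D1_Co, 42.6 and 46.7 FPKM in D2_Co, 45.6 and 43.9 FPKM in D3_Co, and 41.6 and 42.0 FPKM in D3_Control. It was not called in any of the 6 comparisons, and its largest difference from D3_Control was 0.10 in D3_Co (95% interval -0.03 to 0.23). LAMC3, a rarer gamma chain, had a mean of 2.50 FPKM and was higher in D3_Co than in D1_Co by 0.36 (limma, adjusted p = 0.018). That call was lost in 4 of 8 fits, with 0.0665 without D1_Co replicate 2, 0.0716 without D1_Co replicate 3, 0.0616 without D3_Co replicate 1 and 0.0781 without D3_Co replicate 2.

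The alpha chains give laminins their receptor binding. LAMA5, the alpha chain of the laminin widely used to grow pluripotent cells, had 14.5 and 17.6 FPKM in D1_Co, 20.2 and 23.0 FPKM in D2_Co, 18.4 and 19.6 FPKM in D3_Co, and 16.8 and 16.6 FPKM in D3_Control. D2_Co was highest, by 0.35 against D3_Control (limma, adjusted p = 0.0405), and the call was lost in 6 of 8 fits. Those gave 0.0523 without D2_Co replicate 1, 0.189 without D2_Co replicate 3, 0.0567 without D3_Co replicate 1, 0.0566 without D3_Co replicate 2, 0.13 without D3_Control replicate 2 and 0.141 without D3_Control replicate 3. LAMA1, the alpha chain of the early embryo, had 5.34 and 6.56 FPKM in D1_Co, 6.22 and 6.15 FPKM in D2_Co, 9.08 and 9.31 FPKM in D3_Co, and 7.74 and 8.26 FPKM in D3_Control. D3_Co was highest and both earlier days lay below D3_Control. It was higher in D3_Co than in D1_Co by 0.56 (limma, adjusted p = 0.00639) and was not called in D3_Co against D3_Control, at 0.18. Against D3_Control it was lower in D1_Co by a log2 difference of -0.38 (limma, adjusted p = 0.0265, with 0.105, 0.0678 and 0.131 without D1_Co replicate 2, D3_Control replicate 2 and D3_Control replicate 3). LAMA4, an alpha chain of vessels and mesenchyme, averaged 0.817 ± 0.302 FPKM in D3_Co and 1.84 ± 0.189 FPKM in D3_Control (SD, n = 2 each), a difference of -0.65 (limma, adjusted p = 0.0245). Leaving out D3_Co replicate 1 ended that call (0.11), as did leaving out either D3_Control library (0.0711 without replicate 2 and 0.116 without replicate 3). LAMA2, at a mean of 1.04 FPKM, was not called in any comparison. Exons of other genes cover 11.1% of LAMA1 exon bases in GENCODE 29.

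Fibronectin, FN1, the glycoprotein that cells use to spread and to build collagen fibrils, had 52.6 and 56.8 FPKM in D1_Co, 59.1 and 76.9 FPKM in D2_Co, 73.7 and 72.3 FPKM in D3_Co, and 54.2 and 55.6 FPKM in D3_Control. D3_Co lay above D3_Control with no overlap, and the D2_Co libraries were far apart. It was higher in D3_Co by 0.40 (limma, adjusted p = 0.0372), and that call was lost in 6 of 8 fits. The values were 0.125 without D3_Co replicate 1, 0.112 without D3_Co replicate 2, 0.139 without D3_Control replicate 2, 0.115 without D3_Control replicate 3 and 0.0518 without either D1_Co library. Without D2_Co replicate 1, FN1 was called higher in D2_Co than in D3_Control, at 0.48 (limma, adjusted p = 0.0085), against 0.29 and no call with all libraries (adjusted p = 0.0978).

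Among the linkers of the basement membrane, NID1 alone was called in D3_Co against D3_Control. NID1, a nidogen that ties laminin to type IV collagen, had 29.7 and 30.1 FPKM in D1_Co, 31.5 and 32.7 FPKM in D2_Co, 36.0 and 35.4 FPKM in D3_Co, and 28.1 and 29.1 FPKM in D3_Control. It was higher in D3_Co than in D3_Control by 0.31 (limma, adjusted p = 0.00477), with no overlap. Its relative NID2 lay between 2.68 and 3.94 FPKM, was highest in D2_Co and was not called in D3_Co against D3_Control, at 0.05. Exons of RTRAF cover 29.96% of NID2 exon bases in GENCODE 29. AGRN, agrin, a heparan sulfate proteoglycan of basement membranes and nerve-muscle synapses, had 34.8 and 37.6 FPKM in D1_Co, 46.9 and 45.6 FPKM in D2_Co, 46.6 and 45.1 FPKM in D3_Co, and 41.5 and 43.2 FPKM in D3_Control. D1_Co lay below all other groups, and D3_Co was higher than D1_Co by 0.33 (limma, adjusted p = 0.00642). HSPG2, perlecan, had 11.4 and 13.4 FPKM in D1_Co, 14.0 and 17.8 FPKM in D2_Co, 21.0 and 20.9 FPKM in D3_Co, and 15.5 and 18.7 FPKM in D3_Control. D3_Co was highest and D1_Co lowest, and D3_Co was higher than D1_Co by 0.72 (limma, adjusted p = 0.00903). Against D3_Control, HSPG2 was not called in D3_Co, at 0.28 (limma, adjusted p = 0.157), and AGRN was not called in D3_Co, at 0.11. In D1_Co the HSPG2 difference of -0.43 was not called (limma, adjusted p = 0.0532), but it was without D2_Co replicate 1 (0.0382) and without D2_Co replicate 3 (0.0383). Exons of LDLRAD2 cover 11.7% of HSPG2 exon bases in GENCODE 29.

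**Figure D4:**
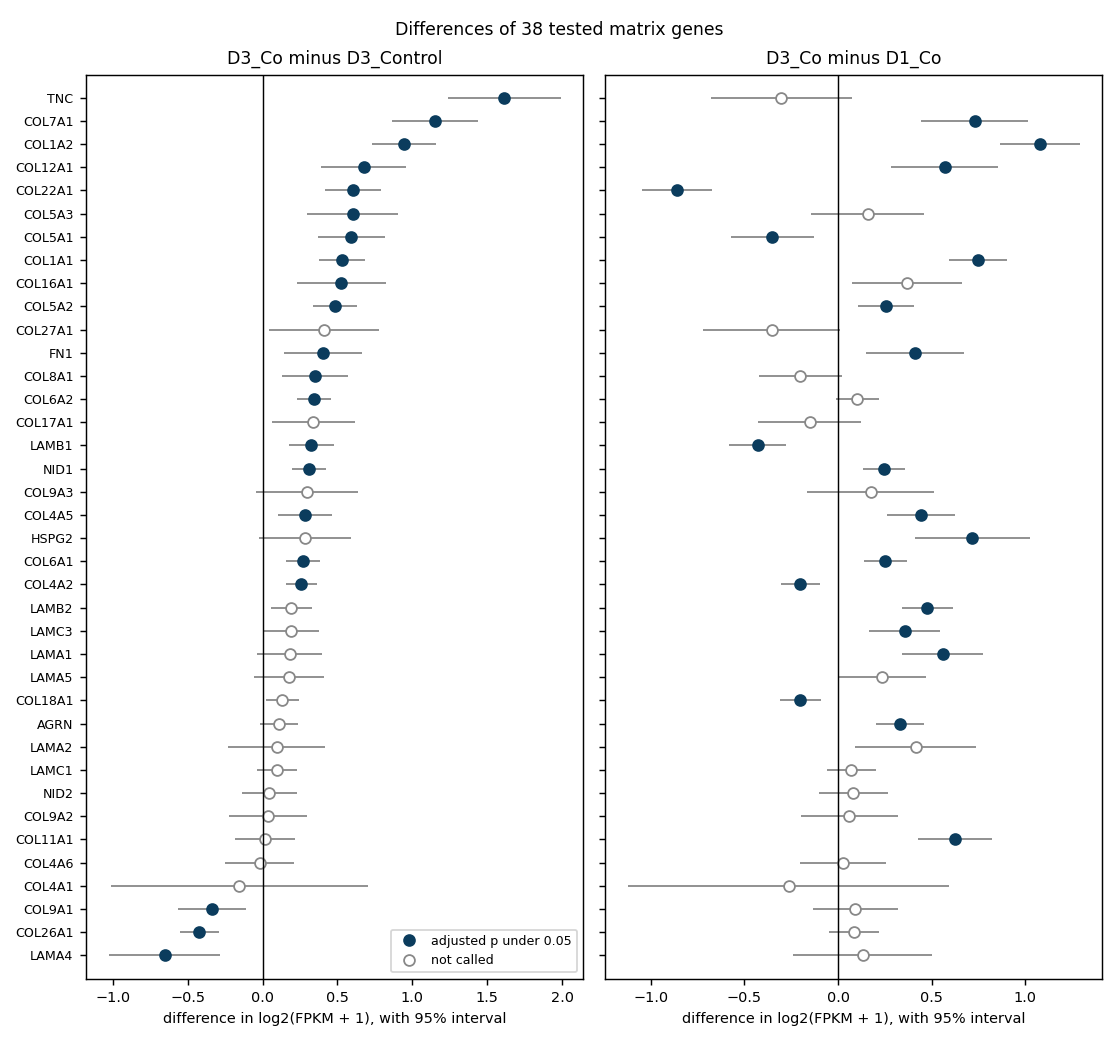
Points give the difference in log2(FPKM + 1) with its 95% interval for 38 of the 39 tested genes (rows) in D3_Co minus D3_Control (left) and D3_Co minus D1_Co (right), filled where adjusted p is under 0.05. TNC, COL7A1 and COL1A2 lead on the left, COL1A2 leads on the right, and COL22A1 is above 0 on the left and below 0 on the right.

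The remaining 23 genes had a mean under 1 FPKM and were not tested, and 11 of them were under 0.1 FPKM. COL19A1 and LAMB4 were listed at 0 in all libraries. COL3A1, the fibrillar collagen that accompanies type I collagen in fibroblasts, did not exceed 0.0492 FPKM in any library. COL2A1, the collagen of cartilage, had 0.591 and 0.628 FPKM in D1_Co, 0.874 and 0.601 FPKM in D2_Co, 0.883 and 0.655 FPKM in D3_Co, and 1.53 and 1.29 FPKM in D3_Control. Co-culture lay below separate culture in every library.

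Enzymes and partners of the matrix were counted from lists, to be read against 13.5% of all tested genes called higher and 10.8% called lower in D3_Co against D3_Control. Of 20 tested collagen folding and processing enzymes, 3 (15%) were higher and none lower in D3_Co than in D3_Control, with a median difference of 0.02, so the share called higher was near that of all tested genes. They included P3H2, a prolyl 3-hydroxylase, at 15.3 and 15.6 FPKM in D3_Co and 8.31 and 7.34 FPKM in D3_Control, a difference of 0.90 (limma, adjusted p = 0.000776). PLOD2, a lysyl hydroxylase whose row was not settled, differed by 0.66 (limma, adjusted p = 0.0131, with 0.0672 without D3_Co replicate 1 and 0.075 without D3_Control replicate 3). Of 5 tested cross-linking enzymes 1 was higher, LOXL2, a lysyl oxidase, by 0.53 (limma, adjusted p = 0.00138). Among 23 tested proteases and inhibitors, 9 (39.1%) were higher and 4 (17.4%) lower. PLAU, the urokinase that activates plasminogen, had 121 and 136 FPKM in D3_Co and 28.9 and 24.5 FPKM in D3_Control, a difference of 2.23 (limma, adjusted p = 8.36e-05).

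Of 22 other matrix glycoproteins tested, 8 (36.4%) were higher and 1 (4.55%) lower in D3_Co than in D3_Control, against 13.5% and 10.8% of all tested genes, with a median of 0.26. The widest differences were those of EMILIN2, at 1.06 (limma, adjusted p = 0.00174, row not settled), and MATN3, a matrilin of cartilage, at 0.78 (limma, adjusted p = 0.00234). Of 25 tested proteoglycans and matrix receptors, 12 (48%) were higher and 1 (4%) lower, with a median of 0.14. CD44, the hyaluronan receptor, had 13.0 and 14.1 FPKM in D3_Co and 4.997 and 4.92 FPKM in D3_Control, a difference of 1.29 on a row that was not settled (limma, adjusted p = 0.000456). SDC4, a syndecan that works with integrins on fibronectin, had 53.4 and 55.2 FPKM in D3_Co and 26.1 and 23.5 FPKM in D3_Control, a difference of 1.10 (limma, adjusted p = 0.000155).

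Markers of fibroblasts, endoderm and pluripotent cells are given beside the matrix genes, and the lists did not share 1 pattern. Of 12 tested fibroblast markers outside the 62 genes, 6 (50%) were higher and none lower in D3_Co than in D3_Control, against 13.5% and 10.8% of all tested genes, with TWIST1 at 1.22 and S100A4 at 0.95 the widest (limma, adjusted p = 0.00334 and 0.00281). The fibroblast list shares DCN, LUM, POSTN, FBLN1, LOX, MMP2 and SPARC with the lists of matrix enzymes and partners above, so the counts are not separate. Summed over 18 fibroblast markers the level was 1797 to 1982 FPKM in D1_Co, 2048 to 2183 FPKM in D2_Co, 1603 to 1651 FPKM in D3_Co, and 1068 to 1203 FPKM in D3_Control, mostly VIM and THY1, which stem cells of this kind also express. THY1 lay between 266 and 288 FPKM in all libraries. VIM had 1200 and 1035.5 FPKM in D1_Co and 1184 and 1288 FPKM in D2_Co. In D3_Co it had 857 and 893 FPKM, and in D3_Control 542 and 420 FPKM. VIM alone thus made up much of the difference between groups in this sum. The fibroblast markers DCN, LUM and FAP were at 0 in all libraries, while others were detected, with TWIST2 at 2.00 to 3.43 FPKM, PDGFRB at 0.991 to 1.94 FPKM, POSTN at 0.456 to 0.992 FPKM and PDGFRA at 0.248 to 0.673 FPKM over the 8 libraries. Among endoderm markers TTR was at 0 in all libraries, and AFP lay between 0.899 and 3.53 FPKM, lowest in D1_Co. SOX17, GATA4 and GATA6 (row not settled) did not exceed 0.923 FPKM and were highest in D1_Co. FOXA2 was highest in D3_Control, at 1.71 and 1.63 FPKM, against 1.08 and 0.908 FPKM in D1_Co. Summed over 10 endoderm markers the level was 17.3 FPKM in both D1_Co libraries, 13.6 to 15.4 FPKM in D2_Co, 6.503 to 6.83 FPKM in D3_Co, and 6.39 to 7.05 FPKM in D3_Control. Most of the D1_Co sum came from genes of the list whose levels are not given here. Only 4 endoderm markers were tested. In D1_Co, 2 of them were higher and 2 lower than in D3_Control, against 10.5% and 12.2% of all tested genes. In D3_Co, 1 was higher and 1 lower than in D3_Control. Among 12 pluripotency markers, 7 (58.3%) were lower and none higher in D3_Co than in D3_Control, with DNMT3B at -0.67 and CRIPTO at -0.47 the widest (limma, adjusted p = 0.00107 and 0.00281). The part of these cell types, and of reads from any other species, in the matrix values was not tested.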

How the data were processed

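The authors deposited 1 table of FPKM per gene, with 45961 gene numbers, names and 8 value columns. Per the submitters' processing notes, HISAT2 2.1.0, StringTie 1.3.3b and GRCh38.p12 were used, with settings not given in the sources used here. The row order fitted a text sort of gene number joined to value in each library, followed by a second sort on the gene numbers of D1_Co replicate 2 alone. Dynamic programming then found, for each of the other 7 libraries, the permitted order with the smallest distance to D1_Co replicate 2 (log2 of FPKM plus 0.1, absolute difference capped at 4). Only orders that sort back to the deposited rows were permitted, and all 7 libraries had one. ACTB, the beta-actin gene, stood at 0 in 7 libraries before this step and between 5852 and 7930 FPKM after it. The search drew values towards D1_Co replicate 2, so the ACTB levels are no separate check of the order. In 10 further searches D1_Co replicate 2 was shifted at random (SD 0.5), and values that differed by over 0.25 were called not settled, which held for 421 tested rows. For matrix genes, 210 values were examined by forbidding the chosen value, and 78 had no other allowed value while 4 had one at an extra cost under 1. The low values gave no whole reads, since 13.1% to 17.2% of low genes lay at the commonest step, so no count test was run.

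Among the 13104 rows that averaged 1 FPKM or more, 12449 whose name matched their gene number in a RefSeq table were tested and 655 were left out. Of 69 rows that carry a matrix gene name, 7 with another gene number were left out. Values on the log2(FPKM + 1) scale of all 8 libraries in 4 groups were tested with limma 3.58.1 (R 4.3.3, eBayes with a trend, residual degrees of freedom 4 and prior 3.19), with Benjamini-Hochberg adjustment over all tested genes and calls under 0.05. The log2(FPKM + 1) scale understates changes of low genes. An exact permutation of 2 libraries against 2 cannot give a two-sided p below 0.333, so none is reported. The scripts were tested on simulated data.

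The matrix genes and gene lists were chosen with earlier results of these data known. Genes with a mean of at least 5 FPKM are named with every library's value, those of 1 to 5 FPKM where called in any comparison or part of a pair or trimer, and those under 1 FPKM only as partners or fibroblast collagens. COL2A1, COL19A1 and LAMB4 were named after their values were seen. From other lists up to 2 of the widest called differences in D3_Co against D3_Control are named. Single endoderm markers are given by level only, with no test. Some genes are counted in the totals but are not reported here. Exon overlaps come from GENCODE 29, and 46 of the 62 genes had a RefSeq promoter window.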

Additional observations from a re-analysis of the deposited data

How the results depend on the processing

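No cause of the changes below was tested. With the pseudocount at 0.1, the FPKM minimum at 5, quantile normalization, median-of-ratios scaling, settled rows only, or realignment to the mean of the libraries (chosen after seeing the data), the number of matrix genes called stayed within 1.5 times in all 6 comparisons. Called matrix genes were 10 in D3_Co against D3_Control, 9 in D1_Co and 14 in D2_Co against D3_Control, 7 in D2_Co against D1_Co, 5 in D3_Co against D2_Co and 7 in D3_Co against D1_Co with only the 18 rows in place, where fewer genes enter. The table as deposited gave 14 in D3_Co against D3_Control and 7 in D3_Co against D2_Co. In D2_Co against D1_Co the 11 calls became 6 with no filter, 2 with only the 2 groups compared and 2 with the replicate block, and all genes called became 344, 154 and 101 in place of 884. In D3_Co against D2_Co the 14 became 9 with only the 2 groups compared, and all genes 1034 in place of 1982. The fits that left out 1 library gave 13 to 20, 11 to 19, 18 to 24, 0 to 9, 6 to 12 and 12 to 21 matrix genes in the 6 comparisons, in the order D3_Co, D1_Co and D2_Co against D3_Control, D2_Co against D1_Co, and D3_Co against D2_Co and D1_Co.

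The replicate numbers were checked for pairing. Only D1_Co and D3_Control share 2 numbers, and their deviations correlated at -0.00674 over 12449 genes, which gives no sign of pairing between these 2 groups. Other groups share 1 number at most and were not checked. With the replicate block, 18, 21, 20, 2, 10 and 15 matrix genes were called in the same order of comparisons, and all genes called were 1819 in place of 3034, 721 in place of 1982 and 1940 in place of 3312 in D3_Co against D3_Control, D2_Co and D1_Co.

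Median-of-ratios scaling moved the share of higher among all called genes from 46.3% to 60.5% in D1_Co against D3_Control, 49.6% to 60.5% in D2_Co against D3_Control, 54.6% to 35.9% in D3_Co against D2_Co and 60.5% to 41.2% in D3_Co against D1_Co. The matrix genes gave 14 higher and 6 lower, 22 and 2, 4 and 12, and 13 and 5 under that scaling.

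Among the differences called for named genes, directions turned, or the difference came to 0.00, only in the table as deposited, on rows whose values stand on the wrong gene. In D3_Co against D3_Control the log2 differences were then -4.82 for COL1A1, -0.49 for COL4A2, -1.75 for COL7A1, -0.34 for COL12A1, -2.83 for FN1, -1.20 for CD44 and -1.23 for TWIST1. In D1_Co against D3_Control they were -1.52 for COL17A1, 1.96 for LAMA1 and 2.01 for LAMB2. In D2_Co against D3_Control they were -0.38 for COL12A1, -1.66 for COL17A1, -1.74 for COL7A1, -3.41 for LAMA5 and 0.00 for LAMB1. In D2_Co against D1_Co they were -0.48 for COL12A1, -0.14 for COL17A1 and -2.16 for COL7A1. In D3_Co against D2_Co they were 1.82 for COL17A1, -4.88 for COL1A1, 0.0007 for COL5A1 and 4.05 for LAMB1. In D3_Co against D1_Co they were -0.45 for COL12A1, -4.61 for COL1A1, -2.17 for COL7A1, -2.82 for FN1, -1.12 for LAMA1 and -2.01 for LAMB2.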
